A study of Drosophila melanogaster with 18 samples.

Results

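The protein part of the cytosolic ribosome was followed through adult life in the second antennal segment of *Drosophila*, the segment that houses Johnston's organ (JO), the auditory and gravity-sensing chordotonal organ of the fly. The genes were chosen by name from the deposited table of 16624 genes. Every gene whose name starts with RpL, RpS or RpLP followed by a digit was taken, together with *sta*, the fly gene of the small subunit protein SA. This gave 92 genes, of which 53 encode proteins of the large subunit and 39 proteins of the small subunit. All 92 were read, and 91 reached the minimum for testing, a normalised count of at least 10 in at least 2 libraries. *RpS28a* did not, with no library at 10 and 8 of 18 libraries at 0. The flies were virgin Canton-S, a wild-type strain, with no transgene, mutation or drug. Both sexes were sampled on days 1, 5, 25 and 50 of adult life, and males on day 10 as well. Each combination was represented by 2 libraries, 18 in all. The sources used here do not say whether the libraries of a group came from separate flies, so p-values measure the spread between these libraries, which may be technical. The segments were dissected whole, so that RNA of neurons, glia, epidermis, muscle, blood cells and attached tissue entered each library.

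A ribosome is built from a large and a small subunit, each an assembly of ribosomal RNA and many small proteins that are needed in nearly equal numbers. The genes of these proteins are among the most strongly transcribed in any cell, and in flies losing 1 copy of many of them gives the Minute phenotype of slow growth and thin bristles. Some proteins also have particular tasks. The P stalk (*RpLP0*, *RpLP1*, *RpLP2*) recruits elongation factors, RpL5 and RpL11 enter the ribosome with the 5S RNA, and RpS6 is the classical substrate of the growth kinase S6K. Several fly genes also have duplicated copies, and a number of these, such as *RpS5b*, *RpS19b*, *RpS10a* and *RpL22-like*, are known from the germline, while the main gene serves the rest of the body.

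The depth of a library lay between 5815182 and 14315927 reads in genes, with the 2 male libraries of day 25 (CT11 and CT12) shallowest. Markers of the tissue were present throughout. The 6 neuronal markers summed to between 20145 and 31224 normalised counts per library, and the 5 chordotonal markers, among them the channel gene *nompC*, to between 2641 and 4707. Both day-50 libraries CT16 and CT18 went against their labels for sex markers. *roX1*, an RNA of male dosage compensation, stood at 16418 in CT18, labelled female, against 1118 in the other female library of that age. The yolk protein gene *Yp1* stood at 25444 in CT16, labelled male, against 1944 in the other male library. The main counts of calls that involve day 50 are therefore also given without this pair. Counts by role group, subunit, chromosome and copy class, without the fold limit, and of groups that do not overlap are given only with it.

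Ribosomal protein genes were highly expressed, and their levels spanned a wide range. Of the 92 genes, 79 had a mean normalised count of 1000 or more, 7 lay between 50 and 1000, and 6 lay below 50. Levels of different genes are compared per kilobase of annotated exon. By that measure the highest were *RpL39* (13734 per kilobase), *RpL41* (12375), *RpS25* (10546), *RpL40* (8171) and *RpL23* (8086). RpL39 and RpL41 are the smallest proteins of the large subunit, and RpL39 lines the exit tunnel of the nascent chain. The lowest main genes, leaving out duplicated copies, were *RpS9* (795), *RpS21* (1269), *RpS19a* (1274), *RpL22* (1324) and *RpL34a* (1391), and the highest main gene exceeded the lowest 17.3-fold. *RpS9* shares 50.3% of its annotated exon bases with an antisense RNA, and the library kit does not mark strand, so its level may be understated. In all, 6 of the 92 genes share over 20% of their exon bases with another gene (*RpS9*, *RpL22*, *RpL23A*, *RpL30*, *RpL24* and *RpL3*), and their values carry the same limit.

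Together the 92 genes took more of the transcriptome at day 50 than at any earlier age. In males they held 1.67% and 2.09% of reads on day 1, then 1.95% and 2.38% (day 5), 2.75% and 2.45% (day 10), 2.35% and 2.56% (day 25), and finally 3.33% and 3.96% (day 50). In females the shares were 1.87% and 1.64% on day 1, then 1.90% and 2.44% (day 5), 2.65% and 2.67% (day 25), and finally 3.56% and 3.17% (day 50). The 4 libraries of day 50 lay above all 14 others. The course before day 50 depended on the measure. Transcripts of the mitochondrial genome held up to 19.3% of reads in the youngest libraries and as little as 5.80% in the oldest ages. The share of nuclear reads alone followed a similar course, with means of 2.16% (day 1), 2.54% (day 5) and 2.84% (day-10 males). On days 25 and 50 the means were 2.74% and 3.76%. The summed normalised counts, in which each library is divided by its size factor, showed no steady climb before day 50. These sums averaged 235292 on day 1, 244390 on day 5, 307047 in the day-10 males, 237832 on day 25 and 377976 on day 50. In bulk RNA, more cells that express these genes and more transcript per cell cannot be told apart.

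**Figure D1:**
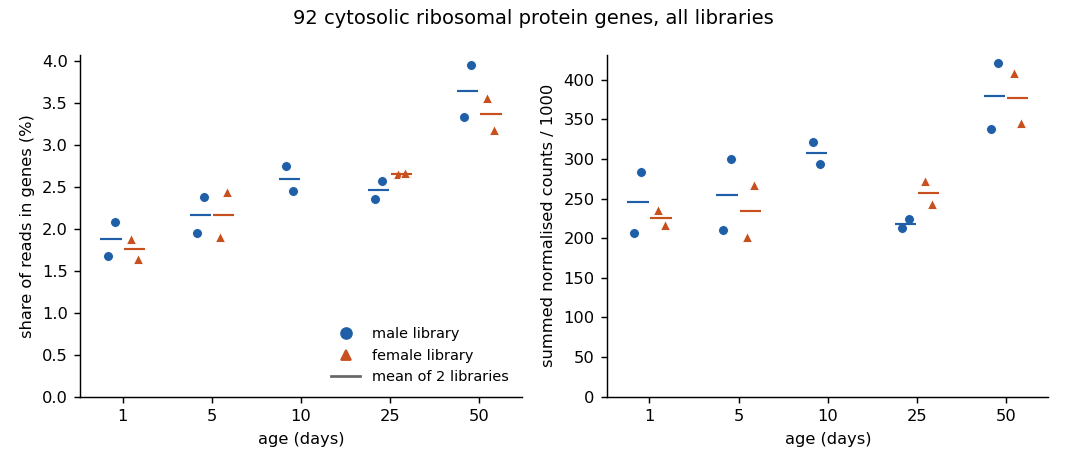
Share of reads in genes (left, %) and summed normalised counts (right, divided by 1000) of the 92 cytosolic ribosomal protein genes against age in days, with 1 point per library (circles male, triangles female) and a line at the mean of the 2 libraries of a group. The 4 libraries of day 50 lie highest in both panels, at 3.17% of reads or more, and the male libraries of day 25 lie below those of day 10 in the right panel.

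Between day 25 and day 50 nearly the whole set rose together. Of the 91 genes tested, 66 rose and 1 fell (*RpL22-like*), where a call needed a Benjamini-Hochberg adjusted p below 0.1 over all genes and a fold above 1.5. Over all 14663 genes tested, 9.78% rose and 17.4% fell. The median change of the ribosomal protein genes was 0.68 on the log2 scale, against -0.04 for all genes. A positive change was seen in 87 of the 91, against 48.0% of all genes. Counted without the fold limit, 81 rose and 1 fell, against 17.9% and 20.7% of all genes. The 79 main genes were narrowly spread, from 0.31 for *RpL22* to 0.96 for *RpS27*, with the middle 50% of them between 0.63 and 0.78. Their median corresponds to a 1.64-fold rise, and their typical standard error was 0.16. In 71 of the 79 main genes, and 73 of all 91, each of the 4 libraries of day 50 lay above each of the 4 libraries of day 25, as did 11.0% of all genes. In 39 of the 91 the day-50 libraries also exceeded all 14 other libraries, against 1.78% of all genes.

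The largest rises in this interval were those of *RpL34b*, *RpS27*, *RpLP1*, *RpS19a* and *RpL12*. *RpS27* (FBgn0039300, 3R from 25245955 to 25247514 of dm6), a zinc-binding protein of the small subunit, stood at 1813, 1714, 2262 and 1862 normalised counts in the 4 libraries of day 25. At day 50 it stood at 3443, 4131, 3857 and 3401. The groups did not overlap, and the change was 0.96 ± 0.16 (SE) on the log2 scale with an adjusted p of 0.0023. *RpLP1*, a P stalk protein, ran from 3902 to 5931 at day 25 and from 7307 to 10629 at day 50, a change of 0.92 ± 0.20 (adjusted p = 0.0058). *RpS19a*, whose human counterpart is mutated in Diamond-Blackfan anaemia, rose from 1180 to 1486 up to 2170 to 2639 (0.91 ± 0.16, adjusted p = 0.0028). *RpL12*, which sits at the base of the P stalk, rose by 0.90 ± 0.17 (adjusted p = 0.0035), from 1306 to 1721 up to 2414 to 2997. None of these 4 genes lost its call under any of the 30 alternatives.

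**Figure D2:**
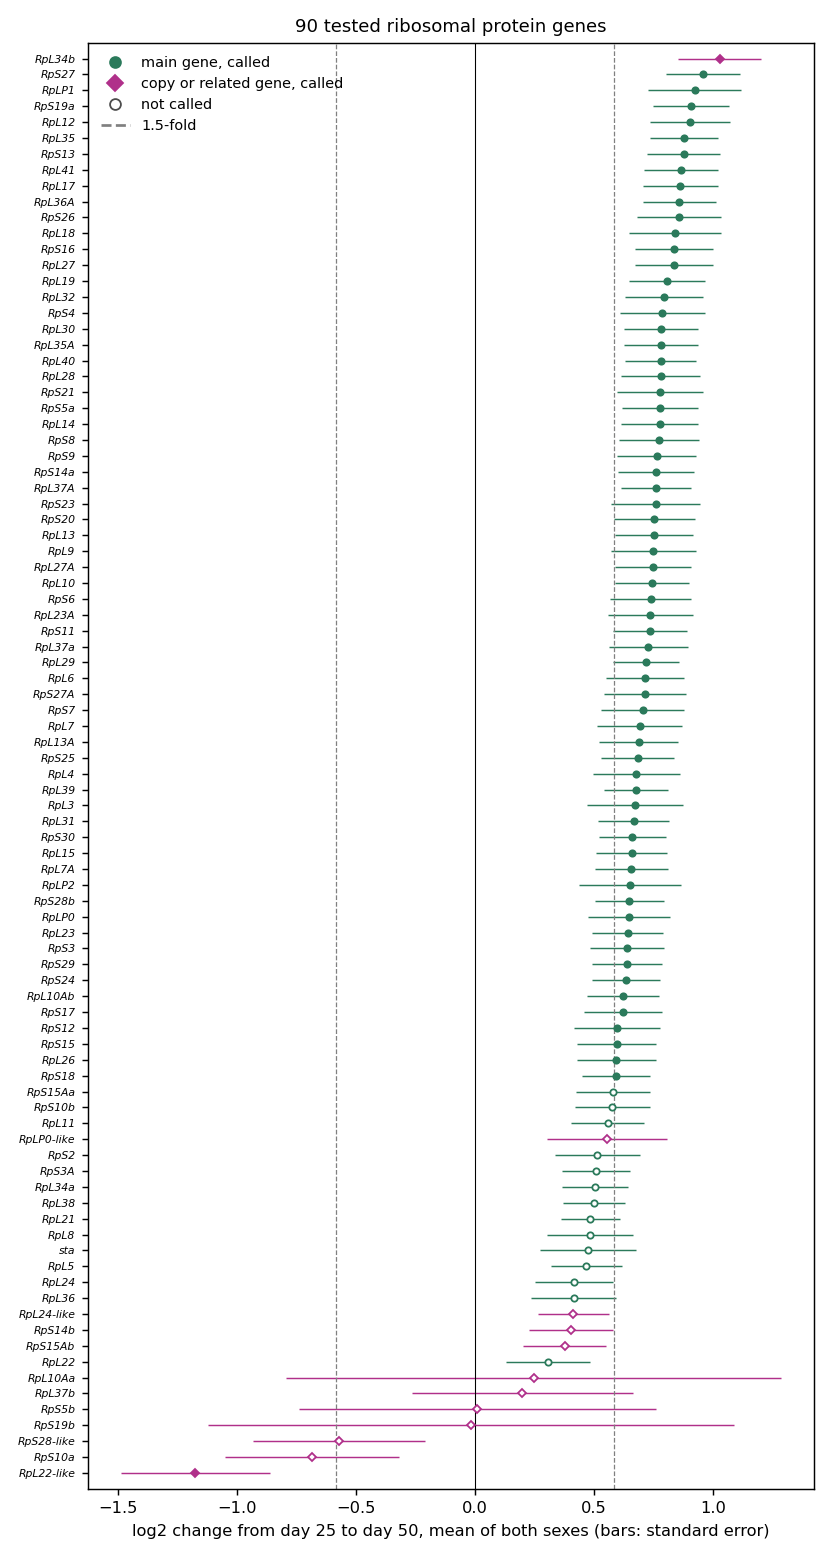
Log2 change from day 25 to day 50 (mean of the male and female changes) of 90 of the 91 tested ribosomal protein genes, ranked, with bars of 1 standard error, filled where called and open where not, and dashed lines at 1.5-fold. The main genes (circles) all lie above 0, between 0.31 and 0.96, and the copies and related genes (diamonds) reach from -1.17 to 1.03.

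Functional groups within the ribosome differed in how many members were called, and the groups were not tested against each other. All 3 P stalk genes rose, by 0.65 ± 0.17 (*RpLP0*), 0.92 ± 0.20 (*RpLP1*) and 0.65 ± 0.21 (*RpLP2*). All 3 genes whose products are made as fusions to ubiquitin or a ubiquitin-like peptide rose, by 0.78 ± 0.15 (*RpL40*), 0.71 ± 0.17 (*RpS27A*) and 0.66 ± 0.14 (*RpS30*). Of the 9 genes of the tunnel exit, 7 rose, and *RpL38* and *RpL22* did not pass. Both genes of the 5S RNA particle missed the fold limit, with changes of 0.47 ± 0.15 (*RpL5*) and 0.56 ± 0.15 (*RpL11*), although their adjusted p of 0.032 and 0.016 lay below 0.1. By subunit, 39 of 53 tested genes of the large and 27 of 38 of the small subunit rose, with medians of 0.69 and 0.66. On the X chromosome 9 of 15 rose, with a median of 0.66, and elsewhere 57 of 76, with a median of 0.69.

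Among single proteins of known function, *RpS6* ran from 1585 to 2545 at day 25 and from 2727 to 3876 at day 50 (0.74 ± 0.17, adjusted p = 0.0077). *RpS3*, which lies at the messenger entry of the small subunit, rose by 0.64 ± 0.15, and *RpS12*, which in flies takes part in the competition between Minute and normal cells, by 0.60 ± 0.18. *RpL3*, at the peptidyl transferase centre, rose by 0.67 ± 0.20, *RpL10*, which joins late in assembly, by 0.74 ± 0.15, and *RpL41* by 0.87 ± 0.16. *sta* stood at 6223, 5512, 7897 and 7513 in the day-25 libraries. Those of day 50 held 7567, 9910, 11508 and 8773. Its groups overlapped, and its change of 0.47 ± 0.20 was not called. The members nearest the fold limit, at 0.58 on the log2 scale, were *RpS18* at 0.593 and *RpL26* at 0.595 inside it and *RpS15Aa* at 0.579 and *RpS10b* at 0.577 outside it.

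The size of the late rise depended on how the libraries were scaled. When values were rescaled to an equal sum over nuclear genes, 15 of the 91 genes rose and 2 fell, with a median change of 0.47. That scaling moved the median of all genes from -0.04 to -0.25, and relative to it the ribosomal protein genes rose by 0.72, as they did with the size factors of the authors. Without CT16 and CT18, 59 rose and 1 fell and the median was 0.66. Leaving out CT16 alone left 50 rises, the fewest of any single library.

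Calls of a rise were made in both sexes. In males 70 of the 91 genes rose and 1 fell, against 8.17% and 9.0% of all genes, with a median change of 0.84. In females 15 rose and none fell, against 2.88% and 3.99% of all genes, and the median was 0.54. The difference between the male and the female change was called for none of the 91 genes and for 0.0% of all genes, and edgeR and DESeq2 were not run on that difference. Without CT16 and CT18 each sex keeps 1 library of day 50, assumed to vary like the other groups. Then all calls in females and nearly all in males were lost among these genes, and most were lost over all genes. The medians were 0.68 in males and 0.67 in females. With an equal sum over nuclear genes 50 rose in males and 3 in females, against 4.58% and 0.859% of all genes. In each sex all 79 main genes had both libraries of day 50 above both libraries of day 25, as had 26.2% of all genes in males and 27.3% in females. Taken alone, the day-50 libraries whose sex markers fitted their labels also lay above day 25. Male CT15 lay above the mean of the day-25 males in all 79 main genes, by a median of 0.68, and female CT17 above the day-25 females in all 79, also by 0.68. Without CT16 and CT18 the median change of all genes was -0.05 in males and -0.02 in females. The share of all genes above day 25 is not given for these single libraries. Replicates of a group differed by up to 0.55 in the median of the main genes.

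Markers of other tissues moved at the same time, and their counts stand beside the 9.78% of all genes that rose and the 17.4% that fell. Of 8 hemocyte markers 5 rose from day 25 to day 50, among them *Hml* and *NimC1*, and none fell. Their sum ran from 2444 to 3217 at day 25 and from 4280 to 4966 at day 50. Of 8 fat body markers 6 rose, with sums from 2876 to 42934 at day 25 and from 22373 to 78892 at day 50. Of 8 photoreceptor markers 5 rose, with sums from 9348 to 16660 and from 4122 to 107743. At day 50 the photoreceptor sum was 4122 in CT17 and 55734 or more in the other 3 libraries. In the 5 chordotonal markers 2 fell (*Dhc98D* and *nompA*), and their sum went from between 3303 and 4707 to between 3020 and 3599. With an equal sum over nuclear genes, 1 hemocyte, 5 fat body and 2 photoreceptor markers rose and 3 chordotonal markers fell. Without CT16 and CT18, 2 hemocyte, 4 fat body and no photoreceptor markers rose and no chordotonal marker fell. No marker of these lists was at 0 in any library, and the part of other tissues in the late rise was not tested.

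Over both sexes, few members were called between day 1 and day 25. From day 1 to day 5 none of the 91 genes rose and 1 fell (*RpS5b*, described with the copies), against 4.69% and 8.78% of all genes, and the median change was 0.08. The nearest to a rise was *RpS24*, at 0.43 ± 0.14 with an adjusted p of 0.057 but under the fold limit. *RpLP2* changed by -0.55 ± 0.21 (adjusted p = 0.11), with 1 female library of day 1 (CT03) at 7971 and the other 3 of that age between 3155 and 4505. From day 5 to day 25 none rose and none fell, against 8.76% and 3.93% of all genes, and the median change was -0.02. In that interval 2 genes had an unadjusted p below 0.05 in limma, and neither edgeR nor DESeq2 called any. These were *RpL38* (-0.44 ± 0.13, adjusted p = 0.037), a surface protein of the large subunit, and *RpL15* (-0.45 ± 0.15, adjusted p = 0.064), both within the 1.5-fold limit.

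**Figure D3:**
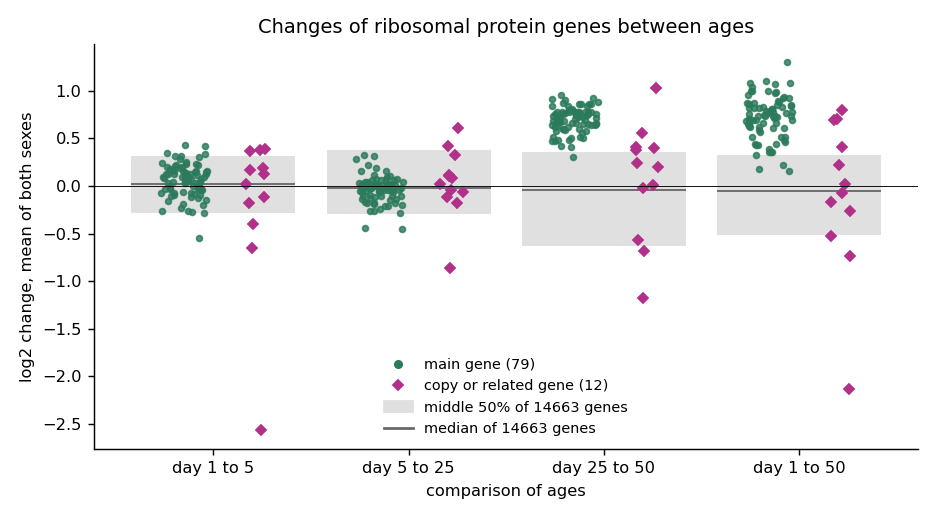
Log2 change between ages (mean of both sexes) of 79 main ribosomal protein genes (circles) and 12 copies and related genes (diamonds), with the grey box over the middle 50% of the 14663 genes tested and a line at their median. The main genes cluster near 0 from day 1 to 5 and from day 5 to 25, with medians of 0.08 and -0.02, and near 0.7 in both comparisons that end at day 50.

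In males, the extra age of day 10 showed a course that the comparisons of both sexes skip. From day 5 to day 10 none of the 91 genes was called, as was 0.0% of all genes, with a median change of 0.33. From day 10 to day 25, 35 fell and 1 rose, against 12.2% and 16.8% of all genes, with a median of -0.51. This count rested on the scaling. With an equal sum over nuclear genes 1 fell and 2 rose, against 1.92% and 25.4% of all genes, with a median of -0.13. The median of all genes moved from -0.01 to 0.36. Relative to all genes the set changed by -0.50 and -0.49 under the 2 scalings. By share of reads these males overlapped, with 2.75% and 2.45% (day 10) against 2.35% and 2.56% (day 25). In 74 of the 91 genes both day-25 males lay below both day-10 males, against 32.9% of all genes. *RpL15* was among them, at -0.92 ± 0.21. *RpL35* is a marked example of the course, with an uncalled change from day 5 to day 10 of 0.54 ± 0.20 against the median of 0.33. In males it stood at 2036 and 2916 (day 5), 3653 and 3434 (day 10), 2271 and 2127 (day 25), and 4430 and 4992 (day 50). From day 10 to day 50, a comparison added after the others, only *RpLP2* was called (0.96 ± 0.30, adjusted p = 0.091), against rises in 2.93% and falls in 3.69% of all genes, and the median was 0.31. With an equal sum over nuclear genes 15 rose in that comparison, against 4.75% of all genes. Without CT16 and CT18 its median change was 0.13. The 2 day-25 males, the starting point of the late male change, are also the 2 shallowest libraries, and whether depth took part was not tested.

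Over the whole span from day 1 to day 50, 64 of the 91 genes rose and 1 fell, against 9.21% and 12.8% of all genes, with a median change of 0.71. The day-50 libraries are the same as in the comparison with day 25. *RpL35* (FBgn0029785, X from 5672401 to 5673547), a protein at the tunnel exit, had the largest rise of the set. Its day-1 libraries averaged 1934 ± 371 (SD, n = 4 libraries) and its day-50 libraries 4711 ± 427. The groups did not overlap (1616 to 2471 and 4271 to 5153), and the change was 1.30 ± 0.14 with an adjusted p of 6.3e-06. The next were *RpLP1* (1.10 ± 0.20), *RpLP0* (1.08 ± 0.17), *RpS27* (1.08 ± 0.16) and *sta* (1.07 ± 0.20). *sta* was thus among the largest changes over the whole span although it was not called from day 25 to day 50, since its changes over the earlier intervals, 0.32 ± 0.20 and 0.28 ± 0.20, were also positive. Without CT16 and CT18, 59 rose and none fell. Without the 1st male library of day 1 (CT01), 50 rose.

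In several groups the replicate libraries differed across the whole set at once, which bears on every comparison that uses them. All 79 main genes were higher in CT02 than in CT01, the 2 males of day 1, by a median of 0.45 on the log2 scale. All 79 were likewise higher in CT06 than in CT05, the day-5 males, by 0.55. In females of day 5, 78 of 79 were higher in CT08 than in CT07, by 0.42, and in males of day 50 all 79 were higher in CT16 than in CT15, by 0.33. The median of all genes differed by 0.03 or less within each of these pairs. In the day-10 males and the females of days 25 and 50 most main genes were lower in the library numbered second. There 4, 8 and 4 of 79 were higher in it, with medians of -0.14, -0.19 and -0.25, against 0.00, 0.01 and 0.01 over all genes. No such shift was seen in the day-25 males, with 41 of 79 higher in CT12 than in CT11 (median 0.01). Nor was it seen in the day-1 females, with 33 of 79 higher in CT04 than in CT03 (median -0.03). Because the genes shift together, the number of them that passes a test is no count of independent results.

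Across the 18 libraries the main genes followed each other closely. The correlation of a gene's log2 level with the mean of the other main genes ran from 0.47 to 0.99, with a median of 0.94, and lay above 0.9 in 58 of 79. These values share libraries and scaling and are given as a description. The lowest were those of *RpL38* (0.47), *RpLP2* (0.54), *RpL36* (0.54), *RpL22* (0.69), *RpL15* (0.70), *RpS3A* (0.73) and *RpL24* (0.75). *RpLP2*, *RpL36* and *RpL24* were each high in the female day-1 library CT03, at 7971, 7674 and 6112, where most other main genes were low. Among the main genes, the change from day 25 to day 50 was hardly related to level per kilobase (r = -0.14 over 79 genes) or to exon length (r = -0.16).

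**Figure D4:**
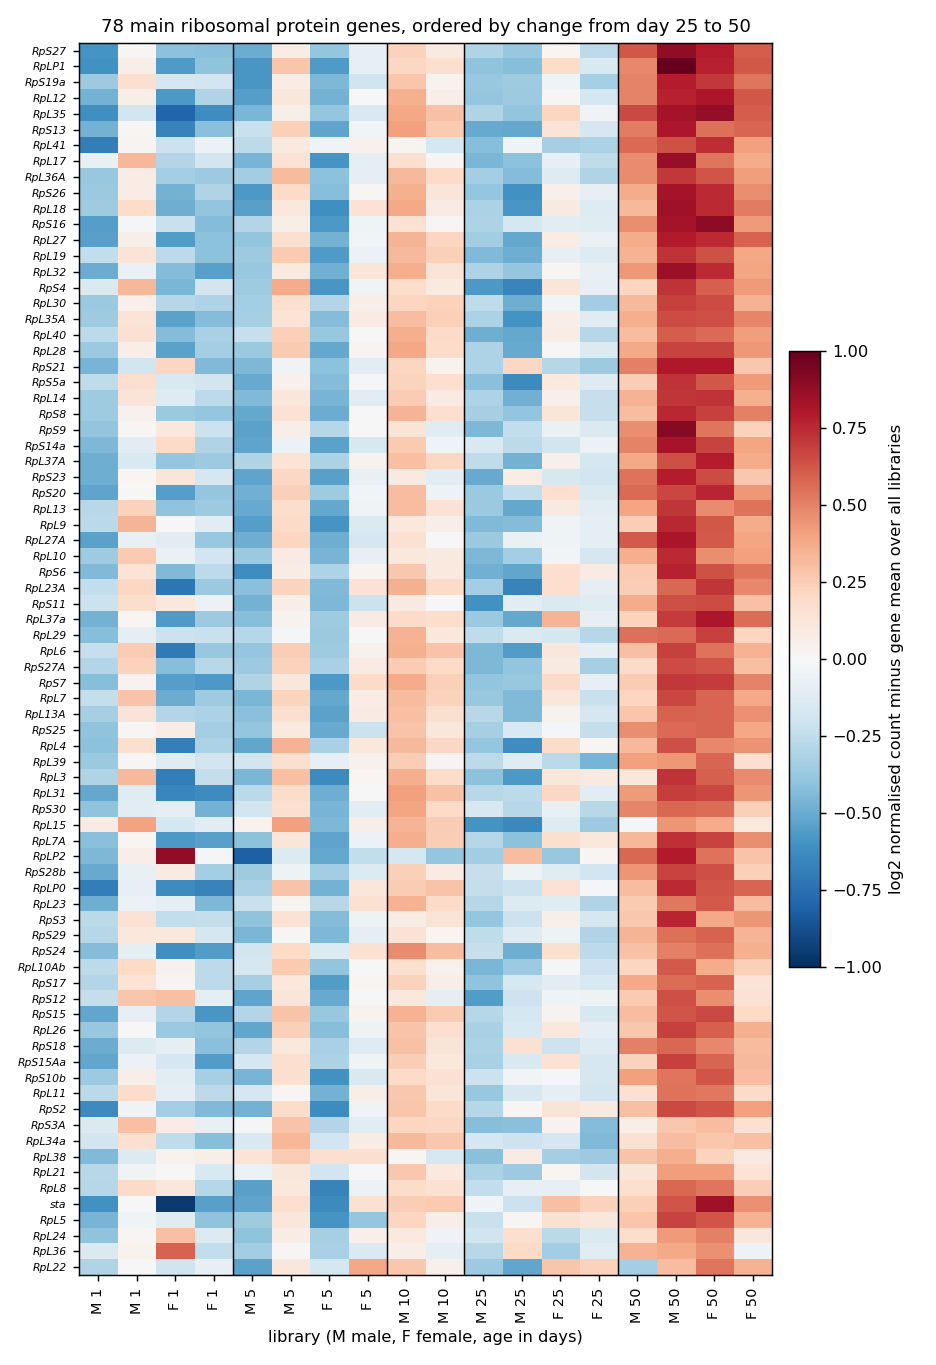
Log2 normalised count of 78 of the 79 main ribosomal protein genes (rows, ordered by change from day 25 to day 50) minus its own mean over the 18 libraries (columns, M male and F female with age in days), with the colour scale ending at -1 and 1. The day-50 columns are red in nearly every row and the 2 male day-25 columns are blue. The replicate pairs of the day-1 males and of both sexes at day 5 differ in shade from top to bottom.

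The duplicated copies and related genes fell into 3 classes by level. *RpL34b*, *RpS14b*, *RpS15Ab* and *RpL24-like* were expressed at 84.6%, 45.5%, 28.6% and 36.4% of the level of their main gene per kilobase. *RpL22-like*, *RpS10a* and *RpLP0-like* stood at 6.67%, 5.05% and 4.85%. The remaining copies, *RpS28-like*, *RpS5b*, *RpL37b*, *RpS19b*, *RpL10Aa* and *RpS28a*, stood at 2.28% or less, down to 0.162% for *RpS28a*. *RpL24-like* and *RpLP0-like* are related to yeast factors of ribosome assembly and are not copies that replace the main protein. *RpS14a* and *RpS14b* are adjacent and nearly identical, so reads may be split between them, and their separate values are uncertain.

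From day 25 to day 50 fewer of these 12 tested genes were called, and the difference between the classes was not tested. Among them 1 rose (*RpL34b*), 1 fell (*RpL22-like*) and 10 were not called, with a median of 0.22, whereas 65 of the 79 main genes rose, with a median of 0.71. Several of the 12 are low, and at such levels the standard errors are large (1.11 for *RpS19b* and 1.04 for *RpL10Aa*), so that a change like that of the main genes was not detectable in them. *RpL24-like*, *RpS14b* and *RpS15Ab* were not low. Their log2 ratios to their main genes changed by -0.003, -0.36 and -0.20, none passing adjustment. *RpLP0-like* changed by 0.56 ± 0.25 (adjusted p = 0.106), just outside both limits.

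*RpL34b* (FBgn0037686, 3R from 9400237 to 9401226) encodes the same protein of the large subunit as *RpL34a* and was about as abundant. It stood at 779, 628, 997 and 917 in the 4 libraries of day 25, and those of day 50 held 1494, 1815, 1828 and 1562. The groups did not overlap, and the change of 1.03 ± 0.18 (adjusted p = 0.0028) was the largest rise of all 91 genes. *RpL34a* stood at 752, 738, 758 and 627 in the same libraries of day 25, against 946, 1050, 1026 and 1050 later, a change of 0.50 ± 0.14 that was under the fold limit. The log2 ratio of *RpL34b* to *RpL34a* averaged 0.35 ± 0.16 over the day-1 libraries and -0.03 ± 0.15 over those of day 5 (SD, n = 4 libraries). For day 25 and day 50 the averages were 0.19 ± 0.35 and 0.71 ± 0.12. In both of these intervals the ratios of the 2 ages did not overlap (two-sided exact permutation p = 0.029, the smallest that 4 against 4 libraries can give), but the adjusted p over 48 tests of 12 pairs was 0.11.

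*RpL22-like* (FBgn0034837, 2R from 23246610 to 23247893) ran against the set. It stood at 177 and 244 in the day-25 males and at 84.5 and 198 in the day-25 females. At day 50 it stood at 72.3, 95.8, 75.5 and 51.6, a change of -1.17 ± 0.31 (adjusted p = 0.014) that no alternative removed. The female library CT13 overlapped the day-50 values. In males it also rose from day 10, at 83.0 and 91.0, to day 25 (1.25 ± 0.44, adjusted p = 0.055). Its main gene *RpL22*, an RNA-binding protein of the large subunit, had the smallest late change of the main genes (0.31 ± 0.18). The germline marker list fell in the same interval, with 6 of 10 called (2 without CT16 and CT18) against 17.4% of all genes, and none rising, and its sum went from between 1433 and 2214 to between 1045 and 1438. The libraries CT11, CT12 and CT14, high for *RpL22-like*, were also the highest for the germline marker *osk*, at 857, 1338 and 887. The sums of the list in these libraries were 1791, 2214 and 1737, so that *osk* alone made up a large part of them. Germline RNA is not part of an antennal segment, and what these transcripts come from was not tested.

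*RpS5b* (FBgn0038277, 3R from 14900432 to 14901563), known from the ovary, was the only member called from day 1 to day 5. It stood at 24.0 and 321 in the day-1 males and at 49.3 and 44.1 in the day-1 females. At day 5 it stood at 3.46 and 5.32 in males and at 20.3 and 23.7 in females, a change of -2.57 ± 0.75 (adjusted p = 0.030). The 4 values of day 5 lay below the 4 of day 1, but the call rested on male library CT02. Without it the change was -1.65 and no longer passed. The ratio of *RpS5b* to *RpS5a* behaved alike, with an exact permutation p of 0.029 and an adjusted p of 0.11. *RpS5a* itself changed by -0.12 ± 0.16.

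In the other pairs no shift of the ratio passed adjustment either. *RpS28-like* held 24.9, 39.5, 43.5 and 34.9 in the day-25 libraries and 18.4, 29.9, 26.0 and 20.3 in those of day 50, while *RpS28b* rose, and their log2 ratio went from -6.44 to -7.66 without overlap (adjusted p = 0.11). *RpS10a* held 84.0, 84.4, 63.2 and 59.4 in the day-25 libraries and 74.8, 55.4, 47.1 and 19.5 in those of day 50, and its ratio to *RpS10b* went from -5.14 to -6.40 (adjusted p = 0.11). *RpLP0-like* ran from 158 to 240 at day 1 and from 96.1 to 148 at day 5, while *RpLP0* had a positive change, and their ratio went from -3.98 to -5.05 (adjusted p = 0.11). Over all 48 comparisons 12 reached the smallest possible p and none passed adjustment. With 12 at that p the adjusted value was 0.11, so no comparison could pass, however large its shift. These tests therefore do not decide whether a ratio shifted.

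**Figure D5:**
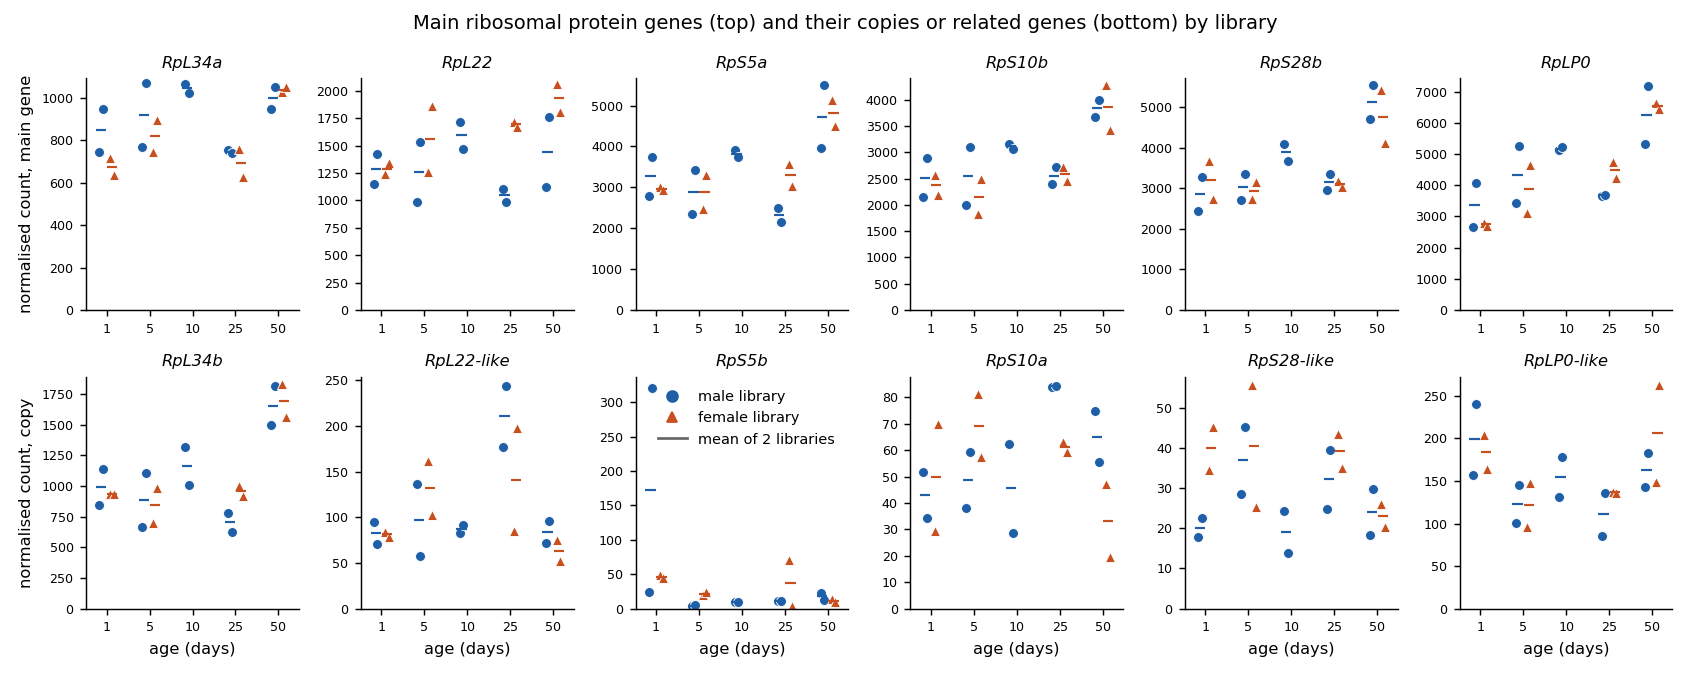
Normalised counts of 6 main genes (top) and of their copies or related genes (bottom) against age in days, 1 point per library, with a line at the mean of the 2 libraries of a group and separate vertical scales that start at 0. *RpL34b* follows its main gene upwards at day 50, *RpL22-like* peaks at day 25 at up to 244, and *RpS5b* has a single male day-1 library at 321.

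Males and females did not separate. Averaged over days 1, 5, 25 and 50, none of the 91 genes was called between the sexes by limma, edgeR or DESeq2, against 0.511% of all genes higher and 2.58% lower in males. The median difference was -0.00 on the log2 scale, and 1 gene had an unadjusted p below 0.05. This was *RpL22*, on the X chromosome, with a difference of -0.37 ± 0.12 (male minus female, adjusted p = 0.15). In the ratios of copies to main genes, *RpL34b* to *RpL34a* was lower in males by 0.22 and *RpL24-like* to *RpL24* higher by 0.24 on the log2 scale. Their two-sided permutation p, with labels permuted within ages, were 0.035 and 0.032, and both adjusted values were 0.21 over 12 pairs. The *RpL22* difference and both ratio differences include CT16 and CT18 under their labels, which their sex markers contradict. They are not given here without this pair.

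Genes that work beside the ribosomal proteins rose in part, and their counts are to be read against the 9.78% of all genes that rose in this interval. From day 25 to day 50, 10 of 18 genes of ribosome biogenesis rose and none fell, with a median of 0.71. Examples are *Fib*, the methyltransferase fibrillarin (0.95 ± 0.26), *Nopp140*, a nucleolar phosphoprotein (0.80 ± 0.21), and *eIF6*, which keeps free large subunits from joining (1.04 ± 0.21). Of 9 elongation and termination genes 4 rose, all parts of elongation factor 1, with *Ef1gamma* at 0.91 ± 0.22 and *Ef1beta* at 0.89 ± 0.21. Of 21 initiation genes 4 rose, led by *eIF-2beta* (1.40 ± 0.21), and the median was 0.43. All 3 partners that bind the ribosome rose, namely *Rack1* (0.75 ± 0.17) and the nascent chain complex genes *Nacalpha* (0.62 ± 0.13) and *bic* (0.78 ± 0.14). Of 7 genes of RNA polymerases I and III 1 rose, and of 22 regulators of translation 1 rose, the kinase gene *S6k* (0.71 ± 0.16). The 72 mitochondrial ribosomal protein genes, which serve a separate ribosome, had 11 rises and no fall and a median of 0.37. These counts also depended on the scaling. With an equal sum over nuclear genes the rises were 5 in biogenesis, 3 in elongation, 2 in initiation and 0 among the partners. They were 0 for the polymerases, 0 among the regulators and 2 in the mitochondrial ribosome. That scaling placed the median of all genes at -0.25. Without CT16 and CT18 the rises were 4 in biogenesis, 3 in elongation, 2 in initiation, 2 among the partners, 0 for the polymerases, 1 among the regulators and 3 in the mitochondrial ribosome.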

How the data were processed

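RNA of second antennal segments was sequenced by the authors from SMART-Seq v4 and Nextera XT libraries on an Illumina platform, aligned to dm6 in Partek Flow and counted per gene with HTSeq (annotation release not given in the sources used here). The deposited signal values, called normalised counts, are those reads divided by the authors by 1 DESeq2 size factor per library. The whole reads were recovered for 100% of values (tolerance 0.01). The deposited table was used only for its 18 library columns, and fold changes and p-values of the authors' own comparisons were not used.

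Values were fitted as log2(value + 1) with limma 3.58.1 (trend) in R 4.3.3, with 1 coefficient per age and sex, for the 14663 genes with at least 10 in at least 2 libraries. A change of both sexes is the mean of the male and female change. The limits of the study were kept for calls, with a false discovery rate of 0.1 (Benjamini-Hochberg over all genes tested) and a fold of 1.5. Fold changes on this scale understate those of low genes. Ratios of copies to main genes were tested with exact permutations over libraries. Where a gene has an adjusted p, it is limma's unless another test is named.

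The members, the gene lists, the pairs and the tests were chosen with earlier results of these data known. Named genes are the copies and their main genes, the 5 largest rises and falls per comparison, the 5 highest and 5 lowest levels, role groups, up to 4 per other list, and genes nearest the fold limit. The day-1 library comparisons, *RpL15*, *RpL38*, *RpS24*, *RpL36*, *RpS3A*, *osk* and the sex markers were named after their values were seen. The values of 1 main gene are not reported here, but it is included in all counts and medians. Exon lengths and positions come from the Ensembl BDGP6 annotation (87 genes by ID, 5 by symbol), which has the coordinates of dm6. As alternatives, the recovered reads were fitted with DESeq2 1.42.0 and edgeR 4.0.16, and pseudocounts, filters, scalings, limits and models were varied and each library left out. The fit was tested on simulated data. Further tables and the figures were made in Python 3.11.15 (matplotlib 3.10.9).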

Additional observations from a re-analysis of the deposited data

Results flagged for a closer look

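In 14 series of values (the 13 copies and related genes and the summed level), the 4 libraries of each age were checked for a value far from the other 3, which gave 3 of 56 groups. Chance alone gives about 1 in 20. *RpS5b* stood at 321 in the male day-1 library CT02, against 24.0 to 49.3 in the other libraries of that age. It stood at 70.02 in the female day-25 library CT13, against 3.77 to 10.9 in the others. *RpLP0-like* stood at 85.5 in the male day-25 library CT11, the shallowest of all, against 136 to 137 in the others.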

How the results depend on the processing

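The late rise kept its direction under every alternative, and 46 of the 67 calls from day 25 to day 50 held in all 30 of them apart from the scaling to an equal sum over nuclear genes. That scaling gave 17 calls and a median change of 0.47. With each library left out in turn the count ran from 51 to 72 and the median from 0.60 to 0.77. From day 1 to day 50 the main count was 65, it ran from 51 to 68 with a library left out, and 48 calls held throughout, with medians from 0.61 to 0.82. From day 1 to day 5 the count of 1 became 3 with the equal sum, and 2 with age and sex added without interaction, with no fold limit, with DESeq2 and without CT16 and CT18, and ran from 0 to 3 with a library left out (medians from -0.06 to 0.21). From day 5 to day 25 the count of 0 became 2 with no fold limit and ran from 0 to 1 with a library left out (medians from -0.16 to 0.12). The counts of 0 between the sexes and for the ratios of copies stayed at 0 under all alternatives run, but with a library left out the permutation tests of ratios cannot reach the threshold. Rescaling a library cancels in these ratios except through the pseudocount, so they were not run under other scalings. With 1 library of a group left out, the remaining one was assumed to vary like those of other groups. In alternatives added after seeing the data, the count of 36 from day 10 to day 25 in males became 3 with the equal sum, and that of 1 from day 10 to day 50 became 15 with the equal sum and 0 without CT16 and CT18. The count of 71 from day 25 to day 50 in males became 51 with the equal sum and 2 without CT16 and CT18, and that of 15 in females became 3 and 0. The count of 0 for the difference between the male and female changes stayed at 0. No paired analysis was possible because the labels of the samples carry no replicate numbers, and the replicate letters of the study number libraries only within a group.

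Amplified reads without molecular identifiers are not independent molecules. Copies with normalised counts under 50 vary by counting alone, and the 2 libraries per group limit the precision of all other genes.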
